A study of Mus musculus with 8 samples.

Results

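The cytosolic ribosome is built from ribosomal RNA and a large set of ribosomal proteins, each held mostly in a single copy, that assemble in the nucleolus into a large and a small subunit. The small subunit reads the messenger RNA, and the large subunit joins amino acids and holds the stalk that recruits elongation factors. Their mRNAs carry a 5′ terminal oligopyrimidine (TOP) tract through which the kinase mTOR controls their translation, and in liver, growth hormone, insulin and amino acids act on that pathway.

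Ribosomal protein genes were described here in the liver of 8 female Ames dwarf mice. The mice carry the df allele on both copies (df/df), a pituitary defect that leaves them without growth hormone, prolactin and thyrotropin. They ate standard pellets at will, and the livers were taken at an age of 24 to 26 months. Each liver was read on its own Affymetrix mouse U74Av2 array, and the 8 samples, numbered as in their titles, form 1 group. All carried the same genotype and diet, so the only comparisons possible were from liver to liver and between genes. Members were all probe sets whose single annotated symbol was Rpl or Rps with a number and at most 1 letter, Rplp0 to Rplp2 or Rpsa, without the Rps6k kinases. The rule found 33 of 8251 singly annotated genes, read by 47 of 12488 probe sets: 21 probe sets for 16 large subunit genes and 26 for 17 small subunit genes. No measured value entered the rule. A further 38 probe sets carried a ribosomal protein symbol together with others, mostly of pseudogenes or unnamed gene models, and are kept apart below. Among those genes were Rplp1, Rpl5 and Rps6, so these had no member probe set, and Rplp2, Rpl11 and Rps27a were not analysed here.

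The deposited values are signals on a linear scale, already brought to a common trimmed mean by the time of deposit, and are called signals here. Over all tested probe sets the 28 pairs of arrays correlated with a Pearson r between 0.907 and 0.973. Spike-in controls averaged 10.70 to 10.88 on the log2 scale on arrays 1 to 4 and 10.18 to 10.46 on arrays 5 to 8, a split that no label names. Of 8 listed hepatocyte markers 7 were tested, with mean signals from 1107 for Ass1 to 30240 ± 4290 (SD, n = 8) for albumin (Alb). Macrophage markers stood highest in livers 4 and 8. The number of arrays limits the precision of every SD and correlation below, and a lower signal from fewer cells of a type cannot be told apart from less RNA per cell.

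All 33 genes had an entry in the RefSeq table (GRCm38.p6), on 17 chromosomes, with no more than 4 on any of them (chromosomes 7 and 17). The upstream regions of the steadiest and the most variable members are shown first, to set which promoter letters genes of this family share beside their spread between livers. RefSeq windows were found for 26 of the 33 genes. The stretches run from 60 bases before to 20 bases after the annotated start on the gene's strand, and capitals mark CCGGAA (the core bound by ETS factors such as GABPA), AAGATGGC (a YY1 motif) and CTTTCC (a pyrimidine string as found at TOP starts), on either strand. Among tested genes with a window, Rpl6 (chr5:121204441-121204520, plus strand) and Rpl10a (chr17:28328411-28328490, plus strand) had the smallest SD between livers in the large subunit, and Rpl13a (chr7:45128726-45128805, minus strand) and Rpl41 (chr10:128549149-128549228, minus strand) the largest. In the small subunit these were Rps4x (chrX:102189372-102189451, minus strand) and Rps27 (chr3:90213629-90213708, minus strand), then Rps19 (chr7:24884532-24884611, plus strand) and Rps10 (chr17:27635225-27635304, minus strand).
Rpl6: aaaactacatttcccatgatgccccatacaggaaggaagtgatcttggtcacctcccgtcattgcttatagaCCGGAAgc
Rpl10a: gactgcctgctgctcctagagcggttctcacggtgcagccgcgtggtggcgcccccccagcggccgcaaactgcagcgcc
Rpl13a: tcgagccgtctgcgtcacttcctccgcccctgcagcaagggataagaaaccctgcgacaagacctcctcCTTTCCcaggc
Rpl41: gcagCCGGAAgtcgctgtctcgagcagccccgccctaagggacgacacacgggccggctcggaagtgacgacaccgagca
Rps4x: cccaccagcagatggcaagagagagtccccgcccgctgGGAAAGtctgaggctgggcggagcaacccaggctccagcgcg
Rps27: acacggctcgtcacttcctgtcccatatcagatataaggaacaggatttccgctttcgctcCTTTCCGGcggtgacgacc
Rps19: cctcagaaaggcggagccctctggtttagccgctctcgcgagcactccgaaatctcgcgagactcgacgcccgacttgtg
Rps10: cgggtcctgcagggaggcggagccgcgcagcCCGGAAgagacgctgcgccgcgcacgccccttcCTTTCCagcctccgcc

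In these stretches Rpl6, Rps27, Rps10 and Rpl41 held CCGGAA or its reverse complement, so the motif occurred in both steady and variable genes. Rps27 held both motifs overlapping at the start, and Rpl10a and Rps19 held none of the 3 in this window. Over the full 300-base RefSeq windows (250 bases before and 50 after the start), 15 of 35 windows of members (42.9%) held CCGGAA on either strand, against 14.9% of all 32851 windows and 18.7% of those of protein-coding genes. AAGATGGC was in 6 of 35 (17.1%, against 2.75% of all windows). CTTTCC on the gene's strand within 20 bases of the start was in 6 of 35 (17.1%, against 1.95%). TATAAA was in 4 of 35 (11.4%, against 13.6%), CCAAT in 9 of 35 (25.7%, against 37.4%) and GGGCGG in 19 of 35 (54.3%, against 35.7%). In windows of protein-coding genes GGGCGG reached 46.2%, nearer to the share of members. There the other shares were 3.05% for AAGATGGC, 1.86% for CTTTCC near the start, 12.6% for TATAAA and 38.2% for CCAAT. Some genes have several overlapping windows, and the motifs were picked after further strings had been counted in these windows, so these shares are descriptions of letters.

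Signals above the filter on low values were measured for 26 of the 47 member probe sets, which stand for 23 genes, 12 of the large and 11 of the small subunit. The filter kept the brighter part of the probe sets other than controls, those whose log2 signals averaged above a signal of 162. Nearest to it were probe sets of Rps29 (mean 221) and Rpl22 (246) above, and of Rps28 (165) and Rps4l (161) below. Below it lay 21 probe sets with means between 12.3 and 165, and 10 genes had no probe set above it: Rpl35a, Rpl38, Rpl39, Rpl39l, Rps13, Rps14, Rps15, Rps20, Rps27l and Rps4l. The other 9 dim probe sets belonged to genes with another probe set above the filter, which for Rps29 lay just above it. For Rps4x, 1 probe set averaged 7842 and the dimmest of its other 4 averaged 24.9. Rpl7 was read at 7553 and 21.7, and Rps24 at 11360 and 113. A dim probe set was therefore not taken as a low mRNA level, and signals of different probe sets are not compared as amounts.

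**Figure D1:**
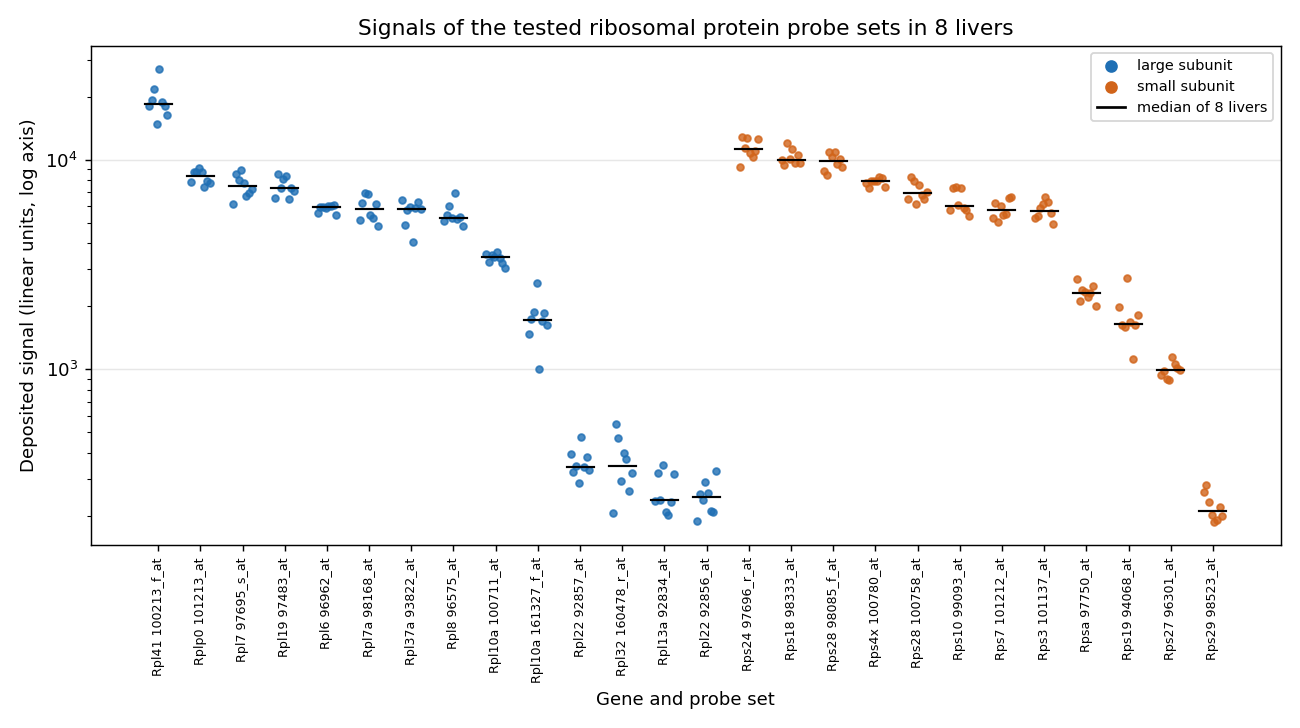
Signal of each of the 26 tested ribosomal protein probe sets (horizontal axis) in the 8 livers, on a log axis in the deposited linear units. Points are livers 1 to 8 from left to right within a probe set, black bars are medians, blue is the large and orange the small subunit. For most probe sets the 8 points lie close together, and those of the dimmer Rpl10a probe set, Rpl32 and Rps19 spread the most.

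Ribosomal protein signals were mostly steady from liver to liver. The median SD of the 26 tested member probe sets was 0.165 on the log2 scale, with a jackknife standard error over livers of 0.0232, against 0.235 over all 6211 tested probe sets. The median ratio of the highest to the lowest liver was 1.38, against 1.63 over all. It stayed under 1.5 in 17 of 26 member probe sets (65.4%), against 34.7% of all. Bright probe sets vary less in general, and among those averaging above 1000 the median SD was 0.151 for the 20 members and 0.204 for all 1788. The SD lay below the typical SD of probe sets of like signal in 21 of 26 members (80.8%), 10 of 14 in the large and 11 of 12 in the small subunit, against 57.6% of all tested probe sets. In the lists described below, it did so in 20 of 23 genes of ribosome biogenesis and 44 of 57 of the mitochondrial ribosome. The counts were 9 of 12 for other TOP mRNAs and 5 of 8 for mTOR and S6 kinase signalling. A high share was therefore not particular to ribosomal protein genes.

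In the test of each variance against the typical variance at its signal, an upper-tail chi-square test adjusted with Benjamini-Hochberg over all 6211 tested probe sets, 2 of 26 member probe sets varied more than typical, against a background of 11.3% of all tested probe sets. These were a probe set of Rpl32 (adjusted p = 0.0452) and the dimmer tested probe set of Rpl10a (adjusted p = 0.0431). The names of both mark probes shared with related sequences or picked under relaxed rules, and among the 20 member probe sets without such a suffix 0 passed, although a probe set of Rps19 had an unadjusted p under 0.05. Both calls were narrow: Rpl32 lost its call without liver 1, 2, 3 or 7, and the Rpl10a probe set without liver 1, 4 or 5. In the lower tail of the same test, 0 of 26 members passed, against a background of 0%. At an unadjusted p under 0.05 the lower tail held 5 of 26 members, against 10.9% of all. On simulated data with equal variances for 6211 probe sets this lower-tail test called 0 of 100 probe sets whose SD was lowered 3-fold. A count of 0 is therefore weak evidence about uniformity. Another simulation drew its variances from the observed SDs and added noise again, so they were more unequal than the real ones. It called 52 of 100 lowered probe sets, but also 106 that had not been lowered. The real data gave 0 such calls, so this share does not carry over to them. In limma, which sets each variance against how variances scatter, the upper tail called 0 of 26, also with 0 at an unadjusted p under 0.05, against backgrounds of 0% and 6.84%.

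**Figure D2:**
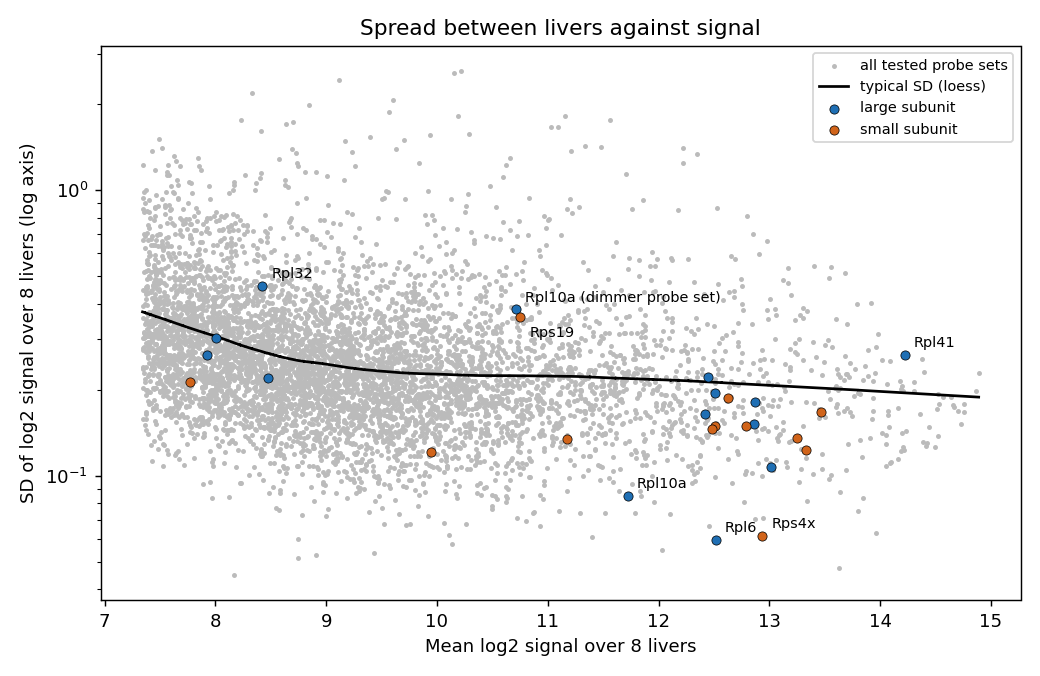
SD of the log2 signal over 8 livers (log axis) against the mean log2 signal for all 6211 tested probe sets in grey, with the typical SD as a black line and the member probe sets in blue (large subunit) and orange (small subunit). Of the 26 members, 21 lie below the line, with Rpl6 and Rps4x lowest, and Rpl32, the dimmer Rpl10a probe set, Rps19, Rpl41 and Rpl37a above it.

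The large subunit holds both the steadiest and the most variable members. Rpl6 had a lowest signal of 5429, a median of 5941 and a highest of 6106 over the 8 livers, a 1.13-fold range with an SD of 0.0597 on the log2 scale. Liver 8 was lowest and liver 1 next, and the other 6 livers lay between 5912 and the highest value. Rplp0 encodes the base of the stalk, which holds the acidic P proteins and recruits elongation factors. It read 7433 at the lowest, 8342 at the median and 9127 at the highest (SD 0.107, a 1.23-fold range), with its highest value in liver 4 and its lowest in liver 6. Rpl10a, a protein of the mobile L1 stalk beside the site where transfer RNA leaves, read 3044, 3427 and 3648 on its brighter probe set (SD 0.0852). Rpl19, which forms a bridge to the small subunit, read 6486, 7369 and 8591 (SD 0.152), highest in liver 2 and lowest in liver 6. The lower-tail adjusted p was 0.295 for Rpl6, 0.32 for Rpl10a, 0.423 for Rplp0 and 0.689 for Rpl19.

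Rpl8, Rpl7 and Rpl7a also lay below the typical SD at their signal. Rpl8, which lies beside the peptidyl transferase centre, read 4814 at the lowest, 5292 at the median and 6927 at the highest (SD 0.164). Rpl7 read 6164, 7500 and 8938, lowest in liver 1 and highest in liver 4, and Rpl7a read 4843, 5816 and 6937, lowest in liver 8 and highest in liver 3. None of these 3 passed a test. Rpl41, a very short basic peptide at the subunit interface, read 14890 in liver 4, a median of 18562 and 27292 in liver 5 (SD 0.265, upper-tail adjusted p = 0.364). Rpl37a, a zinc-binding protein, ran the other way, with its lowest signal, 4071, in liver 5, a median of 5851 and its highest, 6445, in liver 1 (SD 0.221). Thus liver 5 held the highest Rpl41 and the lowest Rpl37a signal. Over all tested genes, liver 5 was the highest liver in 19.5% and the lowest in 16%, and liver 4 in 17.7% and 22.4%. In each of the other livers both shares lay between 7.53% and 13.8%, so extremes fell in livers 4 and 5 more often in general.

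Rpl32 read 205 in liver 1, a median of 347 and 548 in liver 2, a 2.67-fold range with an SD of 0.462, the largest of the tested members. Rpl13a, which in cultured cells leaves the ribosome after interferon-gamma to silence inflammatory mRNAs, read 201 at the lowest, 237 at the median and 349 at the highest (SD 0.304, upper-tail adjusted p = 1.0), lowest in liver 6 and highest in liver 4. Its next highest signals were 319 in liver 2 and 316 in liver 8, so livers 4 and 8, where macrophage markers were highest, held 2 of its 3 highest values. Whether macrophage content had a part in this was not tested. Rpl22, an RNA-binding member that yeast and mouse cells can do without, read 288, 343 and 475 on its brighter probe set (SD 0.219) and 188, 246 and 326 on the other (SD 0.264).

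In the small subunit the spread was smaller, with a median SD of 0.147 over 12 probe sets, against 0.207 over the 14 of the large subunit. The probe sets of the subunits differ in signal, so this gap is a description, and the SD relative to the typical SD had a median of 0.673 in the small and 0.853 in the large subunit. Rps4x, the X-linked S4 protein, read 7369 at the lowest, 7906 at the median and 8283 at the highest (SD 0.0616, lower-tail adjusted p = 0.295). Its range of 1.12-fold was as narrow as that of Rpl6. Rps27, a zinc-finger protein, read 892, 987 and 1145 (SD 0.121), and Rps18, of the head of the subunit, read 9447, 10015 and 12030 (SD 0.123). Rpsa, also known as the laminin receptor precursor, read 1998 in liver 8, a median of 2324 and 2696 in liver 1 (SD 0.135). Rps3, which lines the entry of the mRNA channel and also acts in DNA repair, read 4934, 5727 and 6644 (SD 0.145), and Rps7 read 5039, 5770 and 6616 (SD 0.149).

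Rps19, the gene most often mutated in Diamond-Blackfan anaemia, spread widest among small subunit members. It read 1126 in liver 6, a median of 1653 and 2743 in liver 4, a 2.44-fold range with an SD of 0.36. Liver 4 stood above the other 7, whose highest was 1985 in liver 1. The upper-tail adjusted p was 0.0892, and 0.0294 without liver 5, so its call rested on which livers were counted. Without livers 4 and 8, where macrophage markers were highest, its SD was 0.268 (upper-tail adjusted p = 0.582). Liver 4 held its highest value, so leaving it out lowers the SD in any case. The SD was 0.256 without liver 4 alone (upper-tail adjusted p = 0.657). It was 0.281 without liver 6, its lowest (upper-tail adjusted p = 0.703). Whether macrophage content had a part in the Rps19 spread was not tested. Rps10 read 5425 in liver 8, a median of 6004 and 7449 in liver 3 (SD 0.186), with livers 2, 3 and 5 above 7316 and the other 5 at or below 6098. Rps24 read 9223, 11232 and 12820 (SD 0.167), and Rps29 read 187, 211 and 281 (SD 0.214). None of these passed a test.

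Several genes were read by more than 1 probe set. Of 10 such genes, 3 had 2 tested probe sets, and in none of these did the pair rise and fall together. The brighter and the dimmer Rpl10a probe sets had an r of -0.311 over 8 livers, with SDs of 0.0852 and 0.382. The dimmer one read 1007 in liver 5 and 2588 in liver 4, where the brighter one read 3648 and 3455. The pairs had an r of -0.399 for Rpl22 and -0.0634 for Rps28, whose tested probe sets read 8436, 9841 and 10870 (SD 0.136) and 6185, 6930 and 8254 (SD 0.149). Which probe set of a pair follows the mRNA was not tested.

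**Figure D3:**
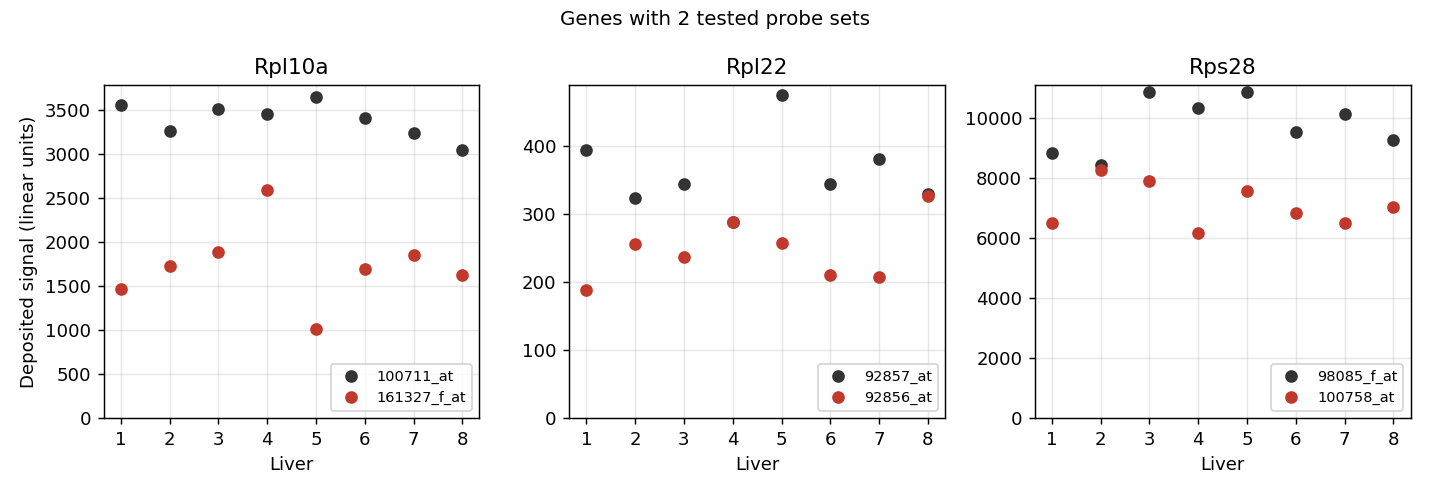
Signals in the 8 livers (horizontal axis, in the order of their labels only) for the 3 genes with 2 tested probe sets, in deposited linear units from 0. The probe sets of Rpl10a, Rpl22 and Rps28 do not follow each other, with r of -0.311, -0.399 and -0.0634.

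For the agreement between genes, each gene was represented by its brightest tested probe set. The 66 pairs of large subunit genes had a mean Pearson r of 0.165 over the 8 livers and the 55 pairs of small subunit genes 0.00729, against 0.00509 over all pairs of 4819 tested genes. The 132 pairs with 1 gene of each subunit had a mean r of 0.128. With any single liver left out, the mean lay between 0.125 and 0.204 within the large and between -0.0198 and 0.0354 within the small subunit. All pairs share the same 8 arrays and their scaling, so these are descriptions. With arrays scaled to a common median the same means were 0.333 and 0.198, and with quantile normalization 0.0773 and -0.0303, so the size of the agreement moved with the scaling while the large subunit stayed above the small.

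Among large subunit genes, Rplp0, Rpl19 and Rpl7 followed the rest of the subunit most closely. Rplp0 correlated with the mean of the other large subunit genes at r = 0.826 and with the small subunit mean at 0.925, Rpl19 at 0.781 and 0.779, and Rpl7 at 0.76 and 0.709. Rpl7 and Rplp0 had an r of 0.862, Rpl19 and Rplp0 0.843, and Rpl19 and Rpl7 0.842. Rpl41 and Rpl8 formed another close pair (r = 0.896). Against these, Rpl37a ran opposite to the rest of its subunit (r = -0.772), to Rpl8 (-0.779) and to Rpl41 (-0.748). Of 12 large subunit genes, 9 correlated positively with the mean of the others, with a median r of 0.496.

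In the small subunit fewer genes followed the rest, a difference that was not tested. Of its 11 genes, 5 correlated positively with the mean of the others, with a median r of -0.0146. Rps18, Rps28 (brighter probe set), Rps3 and Rps4x, picked from the 11 genes by their r, were positively correlated in every pairing among them. Their r ran from 0.329 for Rps18 and Rps4x to 0.839 for Rps18 and Rps28, with 0.681 for Rps3 and Rps4x and 0.675 for Rps28 and Rps3. The tested Rps28 probe sets had an r of -0.0634 with each other. The brighter one carries a cross-hybridisation suffix and the other does not. The values with Rps28 therefore hold for 1 probe set and not for the gene. The r of Rps18, Rps3 and Rps4x with the other Rps28 probe set is not given here. Rps24 and Rpsa ran in opposite directions (r = -0.728). Rps10 followed the large subunit mean (r = 0.927) more closely than the other small subunit genes (r = 0.261). Rps7 correlated negatively with the brighter probe set of the large subunit gene Rpl10a at r = -0.85, the lowest value among all 253 pairs of members. That probe set and the dimmer Rpl10a probe set had an r of -0.311, so the value holds for 1 probe set and not for the gene. The r of Rps7 with the dimmer one is not given here.

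**Figure D4:**
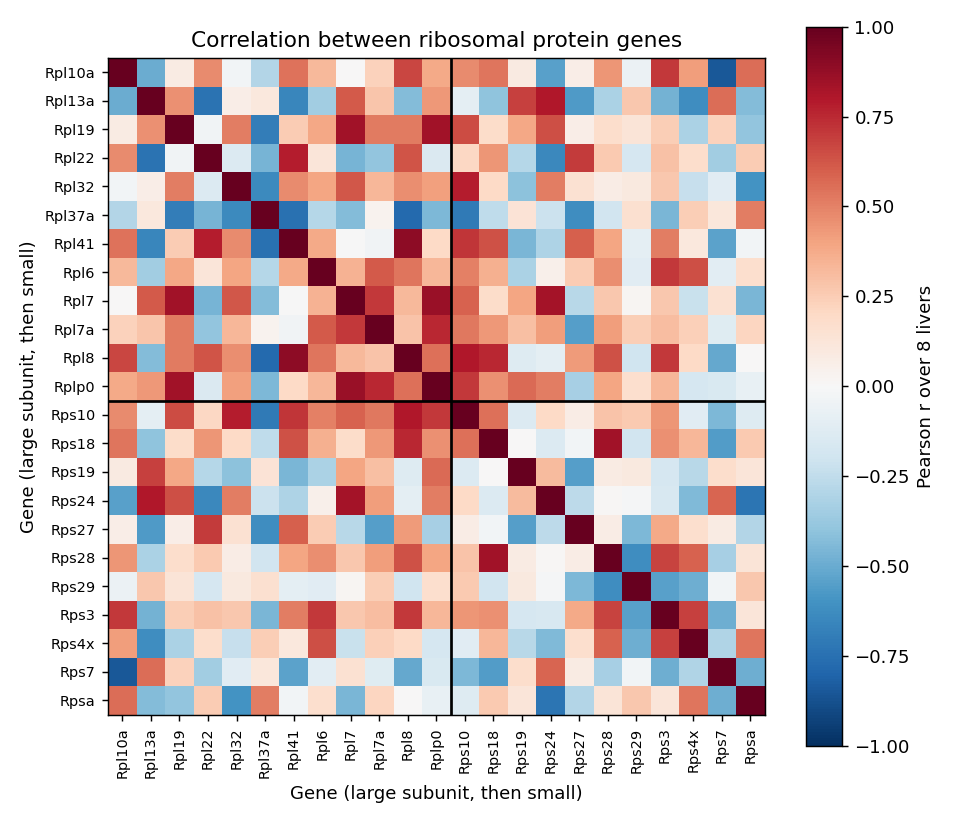
Pearson r over 8 livers for each pair of the 23 tested genes, large subunit first and small subunit second, separated by black lines, from -1 in blue to 1 in red. Rpl19, Rpl7 and Rplp0 form red cells with r above 0.84, the row of Rpl37a is mostly blue, and the small subunit block holds both colours.

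Averaged over genes, the signals of each subunit gave a score for each liver. Averaging genes that agree weakly narrows the range of such a score, so a small range alone does not describe its genes. The large subunit score, the mean of its genes' log2 signals after each was centred over livers, ran from -0.12 in liver 1 to 0.10 in liver 2, a range of 0.217. The other livers lay at 0.10 (liver 3), 0.09 (liver 5), 0.03 (liver 4), -0.04 (liver 7), -0.07 (liver 6) and -0.08 (liver 8). The small subunit score ranged by 0.154, from -0.08 in liver 6 to 0.07 in liver 4. Livers 2, 3, 4 and 5 lay above 0 in both scores, and livers 1, 6 and 8 below 0 in both. The 3′ to 5′ signal ratio of the Gapdh controls, a sign of RNA quality, was lowest in livers 8, 6 and 1 (0.806, 0.822 and 0.844) and lay between 0.874 and 0.969 in the other livers. The same ratio of the actin controls did not set these livers apart. It was 1.62, 1.51 and 1.69 in livers 8, 6 and 1, and lay between 1.24 and 1.74 in the other livers. The part of either ratio in the scores was not tested. Scores of the subunits correlated at r = 0.729 (Spearman's rho 0.571) over 8 livers, at r = 0.796 once the 2 livers with the most extreme large subunit scores were set aside, at 0.689 when centred within arrays 1 to 4 and 5 to 8, and at 0.741 without livers 4 and 8. This correlation moved with the scaling, to r = 0.918 (rho 0.952) with arrays scaled to a common median and r = 0.45 (rho 0.5) with quantile normalization. The difference of the large and small subunit scores had an SD of 0.0628, from -0.09 in liver 1 to 0.09 in liver 2. Among probe sets without a cross-hybridisation suffix that SD was 0.0243. Rpl32, whose probe set carries such a suffix, was itself lowest in liver 1 and highest in liver 2. The large subunit score is a plain mean over 12 genes. Rpl32, at 205 in liver 1 and 548 in liver 2, therefore moved the score toward both of its extremes. Among probe sets without such a suffix the large subunit score ranged by 0.176, against 0.217. Scores without Rpl32 alone were not computed, so which livers would then be the extremes is not given here.

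The order depended in part on the scaling. Scaling to a common median shifted whole arrays by -0.10 in liver 8 to 0.11 in liver 3. The large subunit score then ran from -0.19 in liver 8 to 0.21 in liver 3, and liver 4 moved from 0.03 to -0.05. With quantile normalization it ran from -0.10 in liver 1 to 0.08 in liver 2. In all 3 scalings livers 2, 3 and 5 lay above 0 and livers 1, 6, 7 and 8 below 0 in the large subunit score. In the small subunit score livers 5 and 7 lay above 0 and livers 1, 6 and 8 below 0 in all 3, while livers 2, 3 and 4 changed sign in at least 1. As deposited, the large subunit score correlated at r = -0.811 with the mean centred log2 signal of all 4819 tested genes, a measure of how each array's typical gene stood after scaling.

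**Figure D5:**
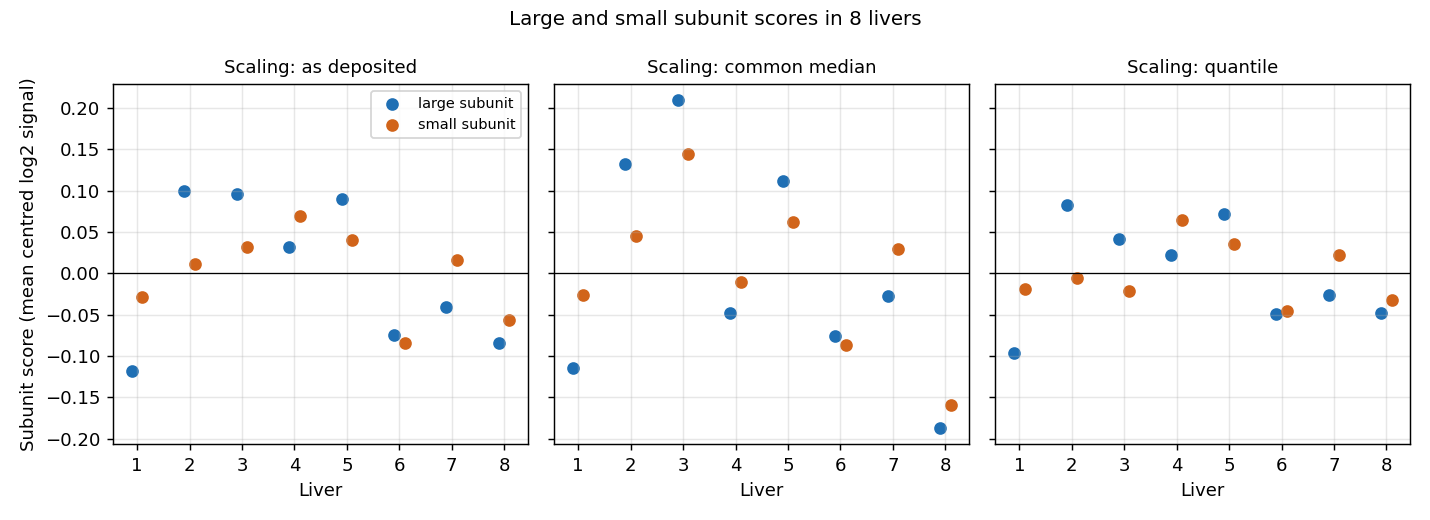
Large (blue) and small (orange) subunit scores, in log2 units, for livers 1 to 8, with arrays as deposited, scaled to a common median and quantile-normalized. As deposited the large subunit score ranges by 0.217 and the small by 0.154, and with a common median by 0.397 and 0.304.

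The probe sets with several symbols gave a further reading of the family from other probes. Of these 38, 32 were above the filter, with a median SD of 0.175 and 1 called more variable than typical, against the same 11.3% background. Their score ranged by 0.336, highest in liver 2 and lowest in liver 1, and correlated at r = 0.681 (rho 0.5) with the score over all members. For 18 large subunit genes the mean pairwise r was 0.343, and their score correlated at r = 0.823 (rho 0.929) with the large subunit score of members. For 9 small subunit genes the mean pairwise r was 0.348, and the correlation with the small subunit score of members was 0.652 (rho 0.595). The small subunit genes thus agreed more here than among the members, with 1 gene present in both sets.

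Of 7 tested hepatocyte markers 2 (Tat and Hnf4a) varied more than typical by the chi-square test, against 11.3% of all tested probe sets. The hepatocyte score was lowest in liver 4 (-0.298) and highest in liver 5 (0.208). Among markers of other cell types, the lists of macrophages and stellate cells had the largest median SDs between livers, 0.712 and 0.7. Of 11 annotated macrophage markers, 9 were tested and 8 varied more than typical, against 11.3% of all tested probe sets, with a summed signal between 4843 in liver 7 and 21230 in liver 4. Their score was 1.34 in liver 4 and 0.83 in liver 8, where the large subunit score was 0.03 and -0.08. Without these livers the median SD of member probe sets was 0.166, against 0.165 with them. T and B cell markers were mostly dim: 4 of 10 annotated were tested and 1 (Coro1a) varied more than typical, with a summed signal between 1085 and 1545, and Cd3d, Cd3e, Cd3g, Cd8a, Cd79b and Ptprc lay below the filter. Of 3 annotated erythroid markers, 2 were tested and 1 varied more than typical, with a sum between 7315 in liver 7 and 15560 in liver 5. Haemoglobin alpha (Hba-a1) was highest in liver 5, at 14120, as was Rpl41; the part of red cell RNA in this was not tested. Of 4 tested endothelial markers 0 varied more than typical by the chi-square test or by limma, with 2 at an unadjusted p under 0.05 in the former and 0 in the latter, and their sum lay between 953 and 1748. Of 3 tested stellate markers 2 varied more than typical by the chi-square test (Col1a1 and Col3a1), with a sum of all 3 between 477 and 1400. Both collagens were highest in liver 4, where the other marker, Des (SD 0.238), was lowest. The 3 had a mean pairwise r of -0.0285, so they did not move together. Krt19, Krt7 and Epcam of the bile duct lay below the filter. The actin controls had a 3′ to 5′ ratio between 1.24 in liver 4, the liver with the highest macrophage sum and the highest Rps19 signal, and 1.74 in liver 7.

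Genes that make ribosomes or share the control of their mRNAs were counted in the same way. Over all tested probe sets the shares past the adjusted threshold were 11.3% for the upper tail, 0% for the lower and 0% by limma. At an unadjusted p under 0.05 they were 18.4%, 10.9% and 6.84%, and the median SD was 0.235. Of 33 listed genes of ribosome biogenesis, 23 were tested and 0 varied more or less than typical by the chi-square tests or more by limma, with 1 in the upper tail, 4 in the lower and 0 by limma at an unadjusted p under 0.05. Their median SD was 0.209. Nucleolin (Ncl), a nucleolar organiser of ribosomal RNA synthesis, read 1952 to 2545, nucleophosmin (Npm1) 1541 to 1923, and the polymerase I factor Ubtf 851 to 1012. Fibrillarin (Fbl), which methylates ribosomal RNA, read 774 in liver 2 and 1264 in liver 5. The list's score correlated with that of the ribosomal protein genes at r = 0.309.

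The other listed TOP mRNAs, 17 in all, had 12 tested and a median SD of 0.183, and 1 varied more than typical, near the share over all probe sets. It was Eef1b2, an exchange factor of elongation (122 in liver 4 to 475 in liver 6, adjusted p = 3.37e-05). The elongation factors Eef1a1 (19970 to 24820) and Eef2 (5815 to 7794) and the growth-related gene Tpt1 (17390 to 21390) did not pass. Of 14 genes of mTOR and S6 kinase signalling, 8 were tested and 0 passed the chi-square tests or limma, also with 0 in each at an unadjusted p under 0.05, and their median SD of 0.231 was close to that over all probe sets. Larp1, which binds the TOP tract, read 1363 in liver 4 and 2051 in liver 5, and Eif4ebp2, a repressor of cap-dependent translation, 3055 in liver 4 and 5557 in liver 2. For the mitochondrial ribosome, which makes proteins inside mitochondria, 57 of 61 genes were tested and 0 passed, with 2 in the upper tail, 10 in the lower tail and 0 by limma at an unadjusted p under 0.05. Its median SD was 0.191 and its mean pairwise r 0.0376, against 0.112 over the 253 pairs of cytosolic ribosomal protein genes.

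Rps3a1, a small subunit gene whose symbol falls outside the rule, read between 7179 in liver 8 and 8713 in liver 2 (SD 0.0996), and correlated with the score over all members at r = 0.884. The 5 other tested genes most like that score, out of 4796, were Ddx6, an RNA helicase of mRNA decay (r = 0.933), Fgf4 (0.931), Snrpg, a core protein of the spliceosome (0.926), Gnas, a G protein subunit (0.923), and Arap3 (0.923). Fgf4 and Arap3 had lowest signals of 87.5 and 130, below the filter level of 162. With 8 livers and 4796 genes, correlations of this size are a ranking and nothing more.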

How the data were processed

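Total liver RNA of 8 mice was hybridised to 1 array each, per the labels. The authors deposited 1 intensity per probe set and array; the scaling target and image software were not given in the sources used here. Trimmed means (2% off each end) differed by 0.009%, so intensities were used as deposited. Values under the 10th percentile, 11.2, were set to it before taking log2. The 66 control probe sets were left out, and 6211 of 12422 others were tested (mean log2 signal above their median). Gene names came from the platform annotation, sequences from RefSeq (GRCm38.p6).

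Each variance was set against a loess curve (span 0.3) of variance on signal with 7 degrees of freedom, in both tails, and tested with limma 3.58.1 in R 4.3.3 (prior 4.90), with Benjamini-Hochberg adjustment over 6211 probe sets and a threshold of 0.05. On simulated data with equal variances, 89 of 100 SDs raised 3-fold were recovered by the upper tail and 75 by limma. With variances drawn from the observed SDs, and so more unequal than the real ones, the counts were 84 and 0. In that run 922 probe sets that had not been raised were also called. Scores and correlations used each gene's brightest tested probe set, with no test. Named members were those past a test, the 4 steadiest and 4 most variable genes per subunit, and genes fixed by role; Rpl8, Rpl7, Rpl7a, Rps3 and Rps7 were added after their values were seen. Members and lists were chosen with earlier results of these data known, and the chi-square test was itself first chosen after values had been seen. The labels name separate samples but do not say how animals were housed together or whether RNA was prepared in batches. The spread between these samples is therefore not split by housing or batch. The p-values set that spread, for each probe set, against the spread of other probe sets of like signal.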

Additional observations from a re-analysis of the deposited data

How the results depend on the processing

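The count of member probe sets varying more than typical, 2, became 1 with arrays scaled to a common median, without arrays 4 and 8, when centred within arrays 1 to 4 and 5 to 8 and with a loess span of 0.5. With no filter on signal it was also 1, but a probe set from below the filter, as Rpl32 (adjusted p = 0.0683) and Rpl10a (0.0576) both lost their calls. It was 0 among probe sets without a cross-hybridisation suffix and ran from 0 to 2 with each liver left out. The count varying less, 0, became 1 (Rpl6) with no filter, and limma gave 0 under each alternative run. With a common median, the median SD became 0.196, mean r 0.333 within the large subunit, 0.198 within the small and 0.31 between them, and the score ranges 0.397 and 0.304. Quantile normalization gave mean r of 0.0773 within the large subunit and 0.0618 between subunits, and a large subunit range of 0.179. With no filter the median SD was 0.303, the score ranges 0.532 and 0.256, and the SD of the large minus small score 0.146. Probe sets without a suffix gave a large subunit range of 0.176 and an SD of that difference of 0.0243. Centring within arrays 1 to 4 and 5 to 8, and averaging a gene's probe sets, each gave a large subunit range of 0.262. With each liver left out, the median SD ran from 0.152 to 0.179, mean r between subunits from 0.0907 to 0.161, the large subunit range from 0.183 to 0.217, the small from 0.126 to 0.215 and the SD of the difference from 0.0561 to 0.0825. The sign of the small subunit mean r, near 0, was not stable. Apart from the construction of each alternative, the cause was not tested. No paired analysis was possible because all 8 samples form 1 group. For the 26 tested probe sets, 421 of 436 recomputed values kept their side of the threshold, 13 lost a call, 2 gained one and 0 reversed. In the main run 24 of the 26 were not called, so the 421 are mostly uncalled values that stayed uncalled. All 13 losses fell on the 2 called probe sets, of Rpl32 and Rpl10a, so the count of 421 does not make their calls stable.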
